A study of Mus musculus with 6 samples.

Results

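Kinesins, augmin and tubulins are the motors, the branching complex and the building blocks of the microtubule cytoskeleton. The genes described here are those whose symbol on the array platform begins with Kif and a digit, Haus, Tuba, Tubb or Tubg, each read from whichever of its probe sets had the highest mean of the 6 array values. The rule gave 50 genes of 12393 with a probe set named for 1 gene. They are 24 kinesins, 8 augmin subunits, 4 alpha, 8 beta and 2 gamma tubulins, and 4 gamma tubulin complex proteins. Tubb2a-ps2, a pseudogene by its symbol, is counted with the beta tubulins. Of the 50, 38 passed the filter on low signal (log2 4 or above on at least 3 arrays) and were tested among 7644 genes. Of these 38, 37 reached log2 4 on all 6 arrays, and Tubb3 reached it on 3.

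The study measured 3 mouse lung adenocarcinoma cell lines, KPR4, KPR5 and KPR8, of strain C57/B6-129SvJae, with Affymetrix arrays. Each line gave 1 array after 24 h in 250 nM 4-OH tamoxifen dissolved in ethanol and 1 array after ethanol alone, the vehicle. All cultures were grown in DME with 10% serum. According to the labels, tamoxifen restores p53 in these lines, and the alleles that allow this are not given in the sources used here. A line is a single established culture, so the replicates are these 3 lines. In the fit with line as a term, p-values rest on how far the changes varied between them, pooled by limma with the spread of other genes. The differences in level between lines are not part of that error. The values are log2 expression, and 1 log2 unit is a doubling of signal. RNA came from whole cultures, so fewer cells in a given state and less RNA per cell cannot be told apart.

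Kinesins are motor proteins that use ATP to walk along microtubules or to take their ends apart. One group of them builds the mitotic spindle, moves chromosomes and organises the midzone for cytokinesis, and another carries vesicles and organelles in non-dividing as well as dividing cells. Augmin docks on existing spindle microtubules and brings the gamma tubulin ring complex, which nucleates new ones, while alpha and beta tubulin form the dimers of which every microtubule is made. Genes of the mitotic group are made mainly before and during mitosis, and their promoters often carry a CHR element, which the DREAM and MMB complexes bind, together with CCAAT boxes, which NF-Y binds. Promoters of genes switched on at the start of S phase more often carry E2F sites.

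Promoter sequences of mitotic kinesins are shown because their members moved together in the array data described below. The sequences are from RefSeq, build GRCm38.p6, and a window of 250 bases before to 50 after the gene start was at hand for 40 of the 50 genes. Each line prints 120 bases before the start and 30 after it, 5′ to 3′ on the strand of the gene. Capitals mark the CHR letters TTTGAA (or, read on the other strand, TTCAAA), the CCAAT letters (or ATTGG) and the E2F letters TTGGCGC (or, read on the other strand, GCGCCAA). The windows are chrX:100625945-100626094 (Kif4, plus strand), chr19:37376262-37376411 (Kif11, plus strand), chr7:127042391-127042540 (Kif22, minus strand), chr9:61946770-61946919 (Kif23, minus strand), chr4:117178743-117178892 (Kif2c, minus strand) and chr2:109280618-109280767 (Kif18a, plus strand).
Kif4: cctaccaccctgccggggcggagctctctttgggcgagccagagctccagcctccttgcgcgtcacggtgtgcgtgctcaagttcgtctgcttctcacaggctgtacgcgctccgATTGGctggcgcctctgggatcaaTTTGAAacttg
Kif11: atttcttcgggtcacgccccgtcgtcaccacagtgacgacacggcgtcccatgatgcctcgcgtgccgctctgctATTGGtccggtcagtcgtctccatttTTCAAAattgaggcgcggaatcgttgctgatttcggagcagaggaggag
Kif22: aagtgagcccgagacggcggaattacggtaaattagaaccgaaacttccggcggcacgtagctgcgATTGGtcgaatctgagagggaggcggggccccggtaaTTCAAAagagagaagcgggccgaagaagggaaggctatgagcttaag
Kif23: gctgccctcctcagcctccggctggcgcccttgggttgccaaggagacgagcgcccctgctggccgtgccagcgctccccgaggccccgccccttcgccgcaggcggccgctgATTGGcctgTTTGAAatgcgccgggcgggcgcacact
Kif2c: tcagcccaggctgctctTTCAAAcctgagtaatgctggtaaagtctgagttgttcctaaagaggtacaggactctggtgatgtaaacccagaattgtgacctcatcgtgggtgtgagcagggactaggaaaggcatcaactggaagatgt
Kif18a: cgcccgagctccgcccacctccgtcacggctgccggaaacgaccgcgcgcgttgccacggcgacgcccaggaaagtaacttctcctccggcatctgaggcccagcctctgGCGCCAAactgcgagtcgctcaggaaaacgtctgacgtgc

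Kif20a, also a mitotic kinesin, had no window and is in none of the counts of matches. The CHR letters stood in the full window of 5 of the 6 mitotic kinesins that had one (Kif2c, Kif4, Kif11, Kif22 and Kif23). They stood in 1 of 10 transport kinesins with a window, Kif1a. Among all 27025 genes of the RefSeq table the share with the CHR letters was 20.2%, and among the 6261 tested genes with a window it was 14.4%. CHR and CCAAT letters in 1 window occurred in 4 of the 6 mitotic kinesins, in 0 of 10 transport kinesins and in 5.81% of tested genes. In Kif4, Kif11 and Kif22 the CCAAT letters lay upstream of the CHR letters with 19, 21 and 32 bases between them, and in Kif23 with 4. These are the pairs nearest the gene start. Kif22 also had CCAAT letters at position -233 and CHR letters at -215 from the start, outside the stretch printed. Kif18a had no CHR match in the window and had an E2F match, which no other mitotic kinesin with a window had. A match is a description of letters, and no binding was measured.

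For contrast, a pair of transport kinesins and a pair of augmin subunits are printed in the same way. The windows are chr11:70700428-70700577 (Kif1c, plus strand), chr2:153291296-153291445 (Kif3b, plus strand), chr7:30664965-30665114 (Haus5, minus strand) and chr8:71272561-71272710 (Haus8, minus strand). None of the 4 holds the CHR letters. Kif3b has a CCAAT match, Kif1c has no match of any kind searched, and Haus5 and Haus8 each have an E2F match.
Kif1c: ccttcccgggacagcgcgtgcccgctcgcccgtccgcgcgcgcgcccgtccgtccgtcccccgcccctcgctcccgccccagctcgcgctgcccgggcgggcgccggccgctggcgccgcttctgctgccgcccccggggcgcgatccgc
Kif3b: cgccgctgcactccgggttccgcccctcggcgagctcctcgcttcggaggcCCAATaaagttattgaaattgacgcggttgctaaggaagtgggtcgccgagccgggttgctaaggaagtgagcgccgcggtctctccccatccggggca
Haus5: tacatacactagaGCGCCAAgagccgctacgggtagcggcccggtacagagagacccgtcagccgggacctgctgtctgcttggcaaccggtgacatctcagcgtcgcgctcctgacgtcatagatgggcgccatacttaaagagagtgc
Haus8: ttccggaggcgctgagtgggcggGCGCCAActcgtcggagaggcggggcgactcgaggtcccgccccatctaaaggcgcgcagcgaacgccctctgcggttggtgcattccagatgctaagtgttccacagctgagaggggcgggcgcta

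Across the augmin genes the CHR letters were in 0 of 7 windows, and an E2F match, TTGGCGC or TTCCCGC on either strand, was in 4 of 7 (Haus3, Haus4, Haus5 and Haus8). The corresponding share among tested genes was 15.2%. An E2F match was in 1 of 6 mitotic kinesins and in 0 of 10 transport kinesins. CCAAT letters alone are common: they were in 4 of 6 mitotic kinesins, 4 of 7 augmin genes, 3 of 10 transport kinesins and 43.1% of tested genes.

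With tamoxifen, 16 of the 38 tested genes fell and 1 rose in limma's test (Benjamini-Hochberg adjusted over all 7644 genes, threshold 0.05). Over all genes 8.94% fell and 10.5% rose. In a fit without the line as block, 0 of the 38 fell and 0 rose (limma, adjusted p), and over all genes 1 fell and 22 rose at the same threshold. At an unadjusted p under 0.05, 12 of the 38 were lower and 0 higher in that fit. The share of all genes at an unadjusted p was not counted for it. The falls lay in the mitotic kinesins, the augmin subunits and a few tubulins, and the single rise was a transport kinesin. The median change of the 38 was -0.27 on the log2 scale (tamoxifen minus vehicle), against 0.00 for all genes tested. In all 3 lines the sign was negative for 22 of the 38 and positive for 4, against 25.7% and 26.0% of all genes. The 3 tamoxifen arrays all lay below the 3 vehicle arrays for 13 of them and all above for 1, against 8.20% and 7.48% of all genes.

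**Figure D1:**
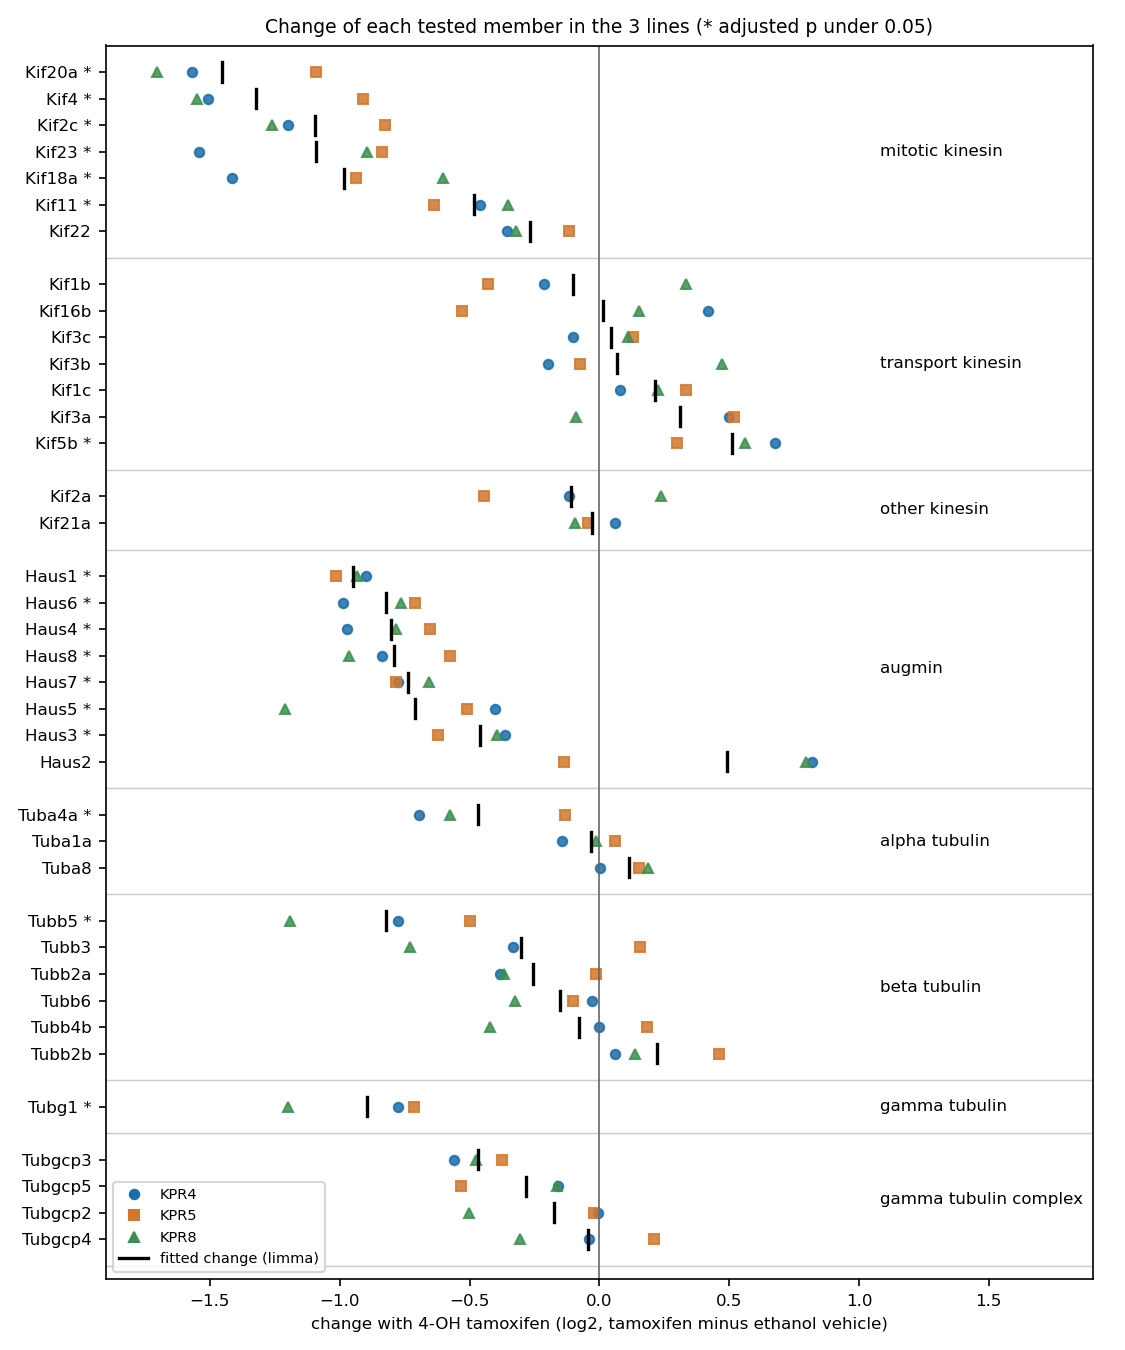
Change with 4-OH tamoxifen (log2, tamoxifen minus ethanol vehicle) of each of the 38 tested genes, with 1 point per line, a bar at the limma estimate and a star where the adjusted p was under 0.05. The mitotic kinesins lie left of 0 in every line, the transport kinesins lie on both sides of 0, and 7 of the 8 augmin genes lie left of 0.

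Proliferation genes moved in the same arrays and in the same direction. Mki67, Top2a and Pcna, the 3 measured of 4 listed, each fell, against 8.94% of all genes, with a median of -1.14. Their summed linear signal was 3069 to 4591 on tamoxifen arrays and 7081 to 8013 on vehicle arrays. The difference between 3′ and 5′ probe sets, a measure of RNA integrity, changed with tamoxifen by 0.24, 0.29 and -0.40 for Gapdh and by 0.16, 0.39 and -0.07 for Actb in KPR4, KPR5 and KPR8. It did not move one way in the 3 lines. The part of either measure in the results was not tested.

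The lines were read against marker lists. All 6 epithelial markers passed the filter. Of 6 alveolar and lung lineage markers 2 passed, Aqp5 at 7.23 to 10.11 and Abca3 at 6.89 to 8.32. Nkx2-1, Sftpc, Sftpb and Sftpa1 did not. The summed linear signal of the epithelial list was 20292 to 27700 on tamoxifen arrays and 20965 to 26822 on vehicle arrays, and that of the lung lineage list 303.1 to 1318 on tamoxifen arrays and 383.0 to 1153 on vehicle arrays. Ciliated cell markers, which matter here because cilia are built of tubulins and kinesins, passed in 0 of the 4 measured. Their summed signal was 39.0 to 51.8 on tamoxifen arrays and 31.5 to 38.1 on vehicle arrays. Foxj1, not tested, stood at 3.50, 3.74 and 4.41 with tamoxifen in KPR4, KPR5 and KPR8 and at 2.50, 2.89 and 3.48 with vehicle. Dnah5 and Rsph1 were also higher in each line, by less, and Tekt1 was lower in KPR4 and KPR5. Of the 6 neuronal markers 1 passed, Snap25, at 5.36 to 6.15, and the list's summed signal was 83.2 to 94.9 on tamoxifen arrays and 72.9 to 101.9 on vehicle arrays. Endothelial markers passed in 0 of 5, leukocyte markers in 2 of 5 measured and fibroblast markers in 3 of 6. The fibroblast markers that passed were Col1a1 at 5.41 to 7.73, Col1a2 at 4.51 to 5.59 and Pdgfra at 3.82 to 4.99. That list summed to 129.1 to 305.2 on tamoxifen arrays and 144.4 to 263.1 on vehicle arrays. The leukocyte list summed to 52.3 to 61.5 on tamoxifen arrays and 43.9 to 46.6 on vehicle arrays. Ptprc and Lyz2 lay at or below the bacterial controls on all arrays. The leukocyte markers that passed were Cd3e, at 3.53 to 4.37, and Cd68. Cd68, a lysosomal protein abundant in macrophages, stood at 4.83, 4.75 and 4.32 with tamoxifen in KPR4, KPR5 and KPR8 and at 3.66, 3.76 and 3.41 with vehicle. It rose by 1.02 ± 0.15 (SE, limma adjusted p = 0.0002) and passed the filter through its tamoxifen arrays. The part of these lists in the results was not tested.

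The mitotic kinesins fell together. Of 7 measured, all tested, 6 fell and 0 rose in limma's test, with the same counts at an unadjusted p under 0.05. All 7 were lower with tamoxifen in each of the 3 lines. Of all genes tested, 8.94% fell and 10.5% rose, and 25.7% were lower in each line. The median change of the 7 mitotic kinesins was -1.09, with a median of -1.42 for KPR4 alone, -0.84 for KPR5 and -0.90 for KPR8. A change of log2 1 or more was reached by 4 of them, Kif20a, Kif4, Kif2c and Kif23. Kif2a, of the same family as Kif2c, was classed with the other kinesins and is in none of these counts. Its change was -0.11 (limma adjusted p = 0.679), and it was above 0 in KPR8.

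Kif20a, which brings the chromosomal passenger complex to the spindle midzone, had the largest change of the 38 tested genes. It stood at 7.79, 8.70 and 7.55 with tamoxifen in KPR4, KPR5 and KPR8, and at 9.36, 9.79 and 9.25 with vehicle. Every tamoxifen array lay below every vehicle array, and the change was -1.45 ± 0.16 (SE, limma adjusted p = 1.53e-05), a 2.74-fold lower signal. Kif4, a chromokinesin that works with Prc1 at the midzone, stood at 4.38, 5.39 and 5.01 with tamoxifen and at 5.89, 6.31 and 6.56 with vehicle. The groups did not overlap either, and the change was -1.32 ± 0.18 (SE, limma adjusted p = 0.000124).

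Kif2c takes microtubule ends apart at centromeres and so corrects faulty attachments. Its values were 5.81, 6.77 and 6.53 with tamoxifen and 7.01, 7.60 and 7.79 with vehicle, with no overlap and a change of -1.10 ± 0.17 (SE, limma adjusted p = 0.000377). Kif23, the motor of centralspindlin, stood at 6.83, 7.85 and 7.47 with tamoxifen and at 8.38, 8.69 and 8.37 with vehicle. The change of -1.09 ± 0.17 (SE, limma adjusted p = 0.000459) was largest in KPR4, at -1.54, against -0.84 in KPR5 and -0.90 in KPR8. Kif18a, which damps chromosome oscillations at the metaphase plate, had 5.46, 5.94 and 6.01 with tamoxifen and 6.87, 6.87 and 6.61 with vehicle. Its change was -0.99 ± 0.19 (SE, limma adjusted p = 0.00171), again largest in KPR4 (-1.42) and least in KPR8 (-0.60).

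**Figure D2:**
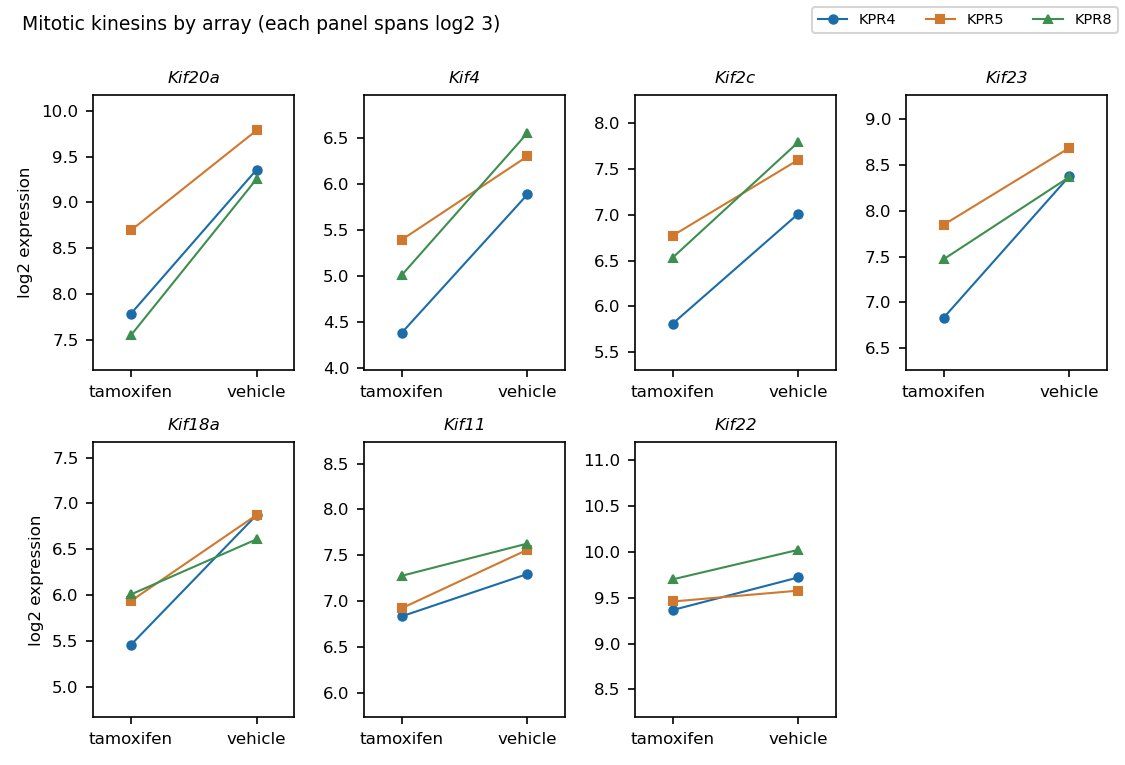
Log2 expression of the 7 mitotic kinesins on each array, tamoxifen at left and vehicle at right, with 1 line of points per cell line and the same span of log2 3 in every panel. All lines slope up towards vehicle, steeply in Kif20a and Kif4 (9.36 with vehicle against 7.79 with tamoxifen for Kif20a in KPR4), and least in Kif22.

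Kif11 and Kif22 changed least on the probe set used. Kif11, the motor that pushes spindle poles apart, stood at 6.83, 6.92 and 7.28 with tamoxifen and at 7.30, 7.56 and 7.63 with vehicle. The groups lay apart by a small margin, and the change of -0.48 ± 0.16 (SE) was close to the threshold (limma adjusted p = 0.0488). Without any 1 line, or with no filter on signal, its adjusted p was above the threshold, between 0.0767 and 0.215. Kif22, a chromokinesin that pushes chromosome arms outward, had 9.37, 9.46 and 9.70 with tamoxifen and 9.72, 9.58 and 10.02 with vehicle. These groups overlapped, and the change of -0.27 ± 0.13 (SE) did not pass (limma adjusted p = 0.172).

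Other probe sets of the same genes gave larger values. In a fit over all probe sets past the filter, the other 2 for Kif22 changed by -1.49 ± 0.16 and -1.28 ± 0.16 (SE, limma adjusted p = 7.9e-05 and 0.000209). The brightest one, used here by the rule, is of the platform type marked x, whose probes can bind more than 1 transcript, as are those used for Kif2c and Tuba1a. For Kif11 the other probe sets changed by -1.23 ± 0.22 and -1.005 ± 0.17 (SE, limma adjusted p = 0.00248 and 0.00174). A second Kif23 probe set changed by -0.79 ± 0.19 (SE, limma adjusted p = 0.0127), and its other one lay between 2.21 and 2.48, below the highest of the 27 bacterial control probe sets (2.84). A second Kif2c probe set changed by -0.95 ± 0.15 (SE, limma adjusted p = 0.00125). With the mean of all probe sets of a gene, dim ones included, 7 of 7 mitotic kinesins fell, with a median of -0.99. In that setting the change of Kif22 was larger, at -1.01 (limma adjusted p = 0.0012), and those of Kif23 and Kif2c were smaller, at -0.63 and -0.68 (limma adjusted p = 0.0197 and 0.00423).

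**Figure D3:**
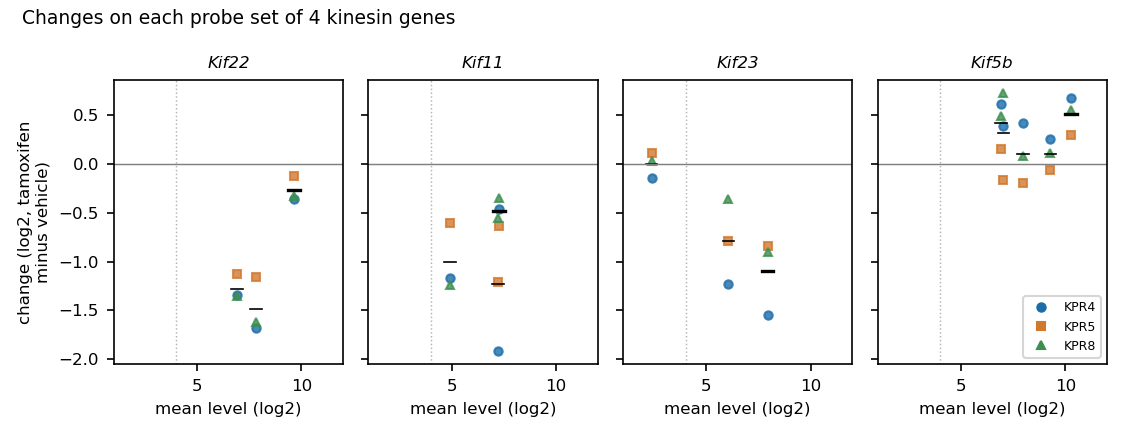
Change with tamoxifen (log2, tamoxifen minus vehicle, 1 point per line, bar at the mean) on each probe set of Kif22, Kif11, Kif23 and Kif5b, set against the probe set's mean level, with the thick bar on the probe set used and a dotted line at the filter of log2 4. The probe set used for Kif22 lies at -0.27 and its other ones at -1.49 and -1.28, while all 5 for Kif5b lie between 0.10 and 0.51.

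Of 12 transport kinesins on the array, 7 were tested, and 1 rose and 0 fell in limma's test, with the same counts at an unadjusted p under 0.05. Among 7 genes these counts are near the shares of all genes, 10.5% higher and 8.94% lower. The median change was 0.07. Per line the median was 0.08 for KPR4, 0.13 for KPR5 and 0.23 for KPR8. The fitted changes of the 7 tested lay between -0.10 and 0.51 and those of the 7 mitotic kinesins between -1.45 and -0.27. On the probe sets used, these ranges do not overlap. The other Kif1b probe sets past the filter changed by -0.31, -0.28 and 0.02 (limma adjusted p from 0.340 to 0.968), and with them the ranges overlap. Within a single line the ranges overlap on the probe sets used: in KPR5, Kif16b changed by -0.53 and Kif22 by -0.12.

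Kif5b, the heavy chain of conventional kinesin, was the one that rose. It stood at 10.62, 10.03 and 10.96 with tamoxifen and at 9.94, 9.73 and 10.39 with vehicle. Each line was higher with tamoxifen, but the groups overlapped because KPR8 vehicle lay above KPR5 tamoxifen. The change was 0.51 ± 0.12 (SE, limma adjusted p = 0.00939), a 1.43-fold higher signal. The other 4 Kif5b probe sets changed by 0.42, 0.32, 0.11 and 0.10, none past the threshold (limma adjusted p from 0.108 to 0.721). With the mean of its probe sets the change was 0.29 (adjusted p = 0.167), and without KPR4 or KPR8 the adjusted p was 0.116 or 0.0613.

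The other 6 did not pass. Kif1c, a motor of vesicles and of messenger RNA, had 8.58, 8.65 and 8.71 with tamoxifen and 8.50, 8.31 and 8.49 with vehicle, a change of 0.21 ± 0.15 (SE, limma adjusted p = 0.345), though its tamoxifen arrays all lay above its vehicle arrays. Kif3b, a subunit of the kinesin-2 motor that serves cilia and vesicles, had 8.002, 7.84 and 8.16 with tamoxifen and 8.20, 7.92 and 7.68 with vehicle. Its change of 0.07 ± 0.17 (SE, limma adjusted p = 0.828) was negative in KPR4 and KPR5 and positive in KPR8. Kif3a, its partner in that motor, changed by 0.31 ± 0.18 (SE, limma adjusted p = 0.251) and Kif16b, an early endosome motor, by 0.01 ± 0.19 (SE, limma adjusted p = 0.971). The other kinesins Kif2a and Kif21a changed by -0.11 ± 0.16 and -0.03 ± 0.16 (SE, limma adjusted p = 0.679 and 0.936). Kif2a is a depolymerase of the same family as Kif2c, but its arrays overlapped.

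Kinesins best known from neurons were low. Kif5a lay between 3.22 and 3.42 on the 6 arrays, Kif5c between 3.42 and 4.35 and Kif17 between 3.18 and 3.63, and none passed the filter. Kif1a, the synaptic vesicle motor, lay at or below the highest bacterial control on all 6 arrays, as did Kif9, Kif12, Tuba3b, Tubb4a and Tubg2. Kif13a at 3.04 to 3.55, Kif21b at 2.77 to 3.03 and Tubb2a-ps2 at 3.20 to 4.04 complete the 12 that were not tested.

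Augmin fell nearly as a whole. Of its 8 subunits, all tested, 7 fell and 0 rose in limma's test, and at an unadjusted p under 0.05, 7 were lower and 1 was higher. The median change was -0.77 and was near that in each line (-0.81 for KPR4, -0.64 for KPR5, -0.77 for KPR8). All 7 were lower with tamoxifen in each line, with fitted changes between -0.95 and -0.46. Of all 7644 genes, 8.94% fell and 10.5% rose, and 25.7% were lower in each line. At an unadjusted p, 1174 of them were lower and 1329 higher.

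Haus1 had 7.05, 7.29 and 7.05 with tamoxifen in KPR4, KPR5 and KPR8, and 7.95, 8.30 and 7.99 with vehicle. The groups lay well apart, and the change of -0.95 ± 0.16 (SE, limma adjusted p = 0.000627) was nearly equal in the lines, at -0.90, -1.02 and -0.93. Haus6, the subunit that binds the gamma tubulin complex through its adaptor Nedd1, had 6.62, 7.87 and 7.89 with tamoxifen and 7.61, 8.58 and 8.65 with vehicle. Here the groups overlapped because KPR4 was lower throughout, and each line still fell, by -0.99, -0.71 and -0.76 (change -0.82 ± 0.16, SE, limma adjusted p = 0.00177).

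Haus4 stood at 5.05, 5.03 and 4.52 with tamoxifen and at 6.02, 5.68 and 5.30 with vehicle, a change of -0.80 ± 0.16 (SE, limma adjusted p = 0.00278) without overlap. Haus8, which holds the microtubule binding end of augmin, had 4.07, 5.10 and 4.16 with tamoxifen and 4.91, 5.68 and 5.12 with vehicle. Its groups overlapped because KPR5 was higher under both treatments, and the change was -0.79 ± 0.16 (SE, limma adjusted p = 0.00264). Haus7 had 5.88, 5.40 and 5.97 with tamoxifen and 6.65, 6.18 and 6.63 with vehicle, a change of -0.74 ± 0.16 (SE, limma adjusted p = 0.00542) without overlap.

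The calls of Haus5 and Haus3 depended on the lines included. Haus5 had 4.54, 4.94 and 4.60 with tamoxifen and 4.95, 5.45 and 5.81 with vehicle, with a change of -1.21 in KPR8 against -0.40 in KPR4 and -0.51 in KPR5. Over the lines it was -0.71 ± 0.18 (SE, limma adjusted p = 0.0128), and without KPR8 it was -0.46 (adjusted p = 0.128). Haus3 changed by -0.46 ± 0.14 (SE, limma adjusted p = 0.0288), and without any 1 line its adjusted p lay between 0.0724 and 0.165. With no filter on signal it was 0.053.

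Haus2 was the exception. It stood at 10.17, 9.31 and 10.01 with tamoxifen and at 9.35, 9.45 and 9.22 with vehicle, higher in KPR4 and KPR8 and slightly lower in KPR5. The change was 0.49 ± 0.17 (SE, limma adjusted p = 0.0577). Without KPR5 it was 0.81 (adjusted p = 0.00212).

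**Figure D4:**
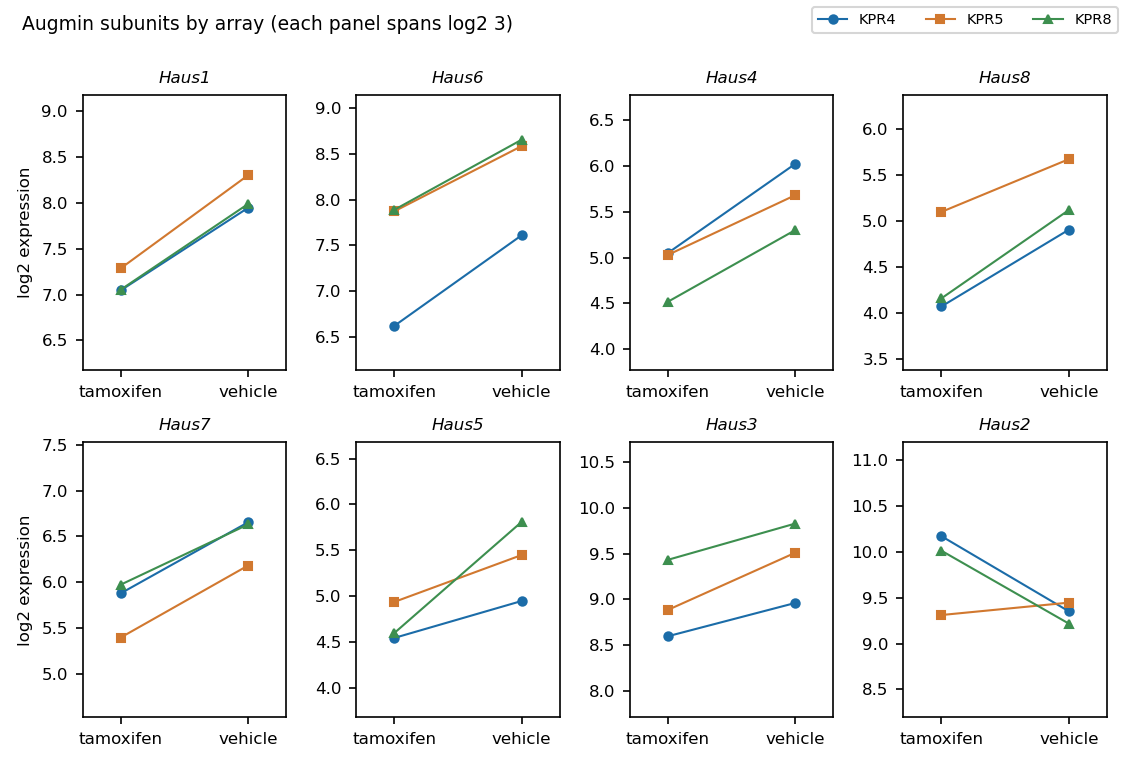
Log2 expression of the 8 augmin subunits on each array, tamoxifen at left and vehicle at right, with 1 line of points per cell line and panels of equal span. The 7 subunits that fell slope up towards vehicle in every line (Haus1 stood at 7.05 to 7.29 with tamoxifen and 7.95 to 8.30 with vehicle), and Haus2 slopes the other way in KPR4 and KPR8.

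Among the gamma tubulins and their complex, 1 gene of 5 tested fell, against 8.94% of all genes. Tubg1, gamma tubulin, had 5.54, 5.74 and 5.39 with tamoxifen and 6.31, 6.46 and 6.59 with vehicle. The groups did not overlap, and the change was -0.90 ± 0.17 (SE, limma adjusted p = 0.00203). Of the 4 complex proteins that hold it in a ring, 0 fell and 0 rose in limma's test, and 1 was lower at an unadjusted p. That one, Tubgcp3, had 5.43, 5.46 and 5.70 with tamoxifen and 5.99, 5.83 and 6.18 with vehicle, a change of -0.47 ± 0.16 (SE, limma adjusted p = 0.0571). Its adjusted p was 0.0478 with each array centred on its median and 0.0394 without limma's trend. It has 1 probe set, and in the fit where the probe sets of other genes were averaged its change was the same with an adjusted p of 0.0312. Tubgcp5, Tubgcp2 and Tubgcp4 changed by -0.28 ± 0.17, -0.18 ± 0.17 and -0.05 ± 0.14 (SE, limma adjusted p = 0.261, 0.506 and 0.863).

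Of the 9 tested alpha and beta tubulins, 2 fell and 0 rose in limma's test, also at an unadjusted p, with a median change of -0.15. Of all genes tested, 8.94% fell and 10.5% rose. Tuba1b and Tuba1c are not among the 9, because their probe sets also carry the symbol of another gene. The brightest of these lay at 12.31 to 13.01 for Tuba1b and at 10.91 to 11.61 for Tuba1c. Tubb5, the main beta tubulin of many dividing cells, stood at 10.24, 11.09 and 10.31 with tamoxifen and at 11.01, 11.59 and 11.50 with vehicle. Each line was lower with tamoxifen, and the groups overlapped because KPR5 with tamoxifen lay above KPR4 with vehicle. The change was -0.82 ± 0.13 (SE, limma adjusted p = 0.000468), and a second probe set gave -0.60 ± 0.12 (SE, limma adjusted p = 0.00412). Tuba4a, an alpha tubulin, had 11.68, 12.53 and 12.19 with tamoxifen and 12.38, 12.67 and 12.76 with vehicle. Its change of -0.47 ± 0.11 (SE, limma adjusted p = 0.00673) was -0.69 in KPR4 and -0.58 in KPR8 and -0.13 in KPR5. The adjusted p was 0.0756 without KPR4, 0.0831 without KPR8, 0.0935 with the mean of its probe sets and 0.0624 without limma's trend.

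The other 7 tubulins did not pass the threshold. Tuba1a, the alpha tubulin typical of young neurons, had 11.99, 12.71 and 12.69 with tamoxifen and 12.13, 12.65 and 12.71 with vehicle, a change of -0.03 ± 0.09 (SE, limma adjusted p = 0.846). Tubb2b changed by 0.22 ± 0.11 (SE, limma adjusted p = 0.187) and was the one beta tubulin higher with tamoxifen in all 3 lines. Tubb6, Tubb4b and Tubb2a changed by -0.15 ± 0.11, -0.08 ± 0.14 and -0.25 ± 0.14 (SE, limma adjusted p = 0.388, 0.735 and 0.215). Tubb3, the beta tubulin used as a marker of neurons, lay near the filter, at 3.08, 4.73 and 3.56 with tamoxifen and 3.42, 4.57 and 4.29 with vehicle. Its change was -0.30 ± 0.17 (SE, limma adjusted p = 0.233), and without KPR5 it was -0.53 (adjusted p = 0.0417). Tubulin genes are alike in their coding sequence, and how far their probe sets bind each other's transcripts was not examined.

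**Figure D5:**
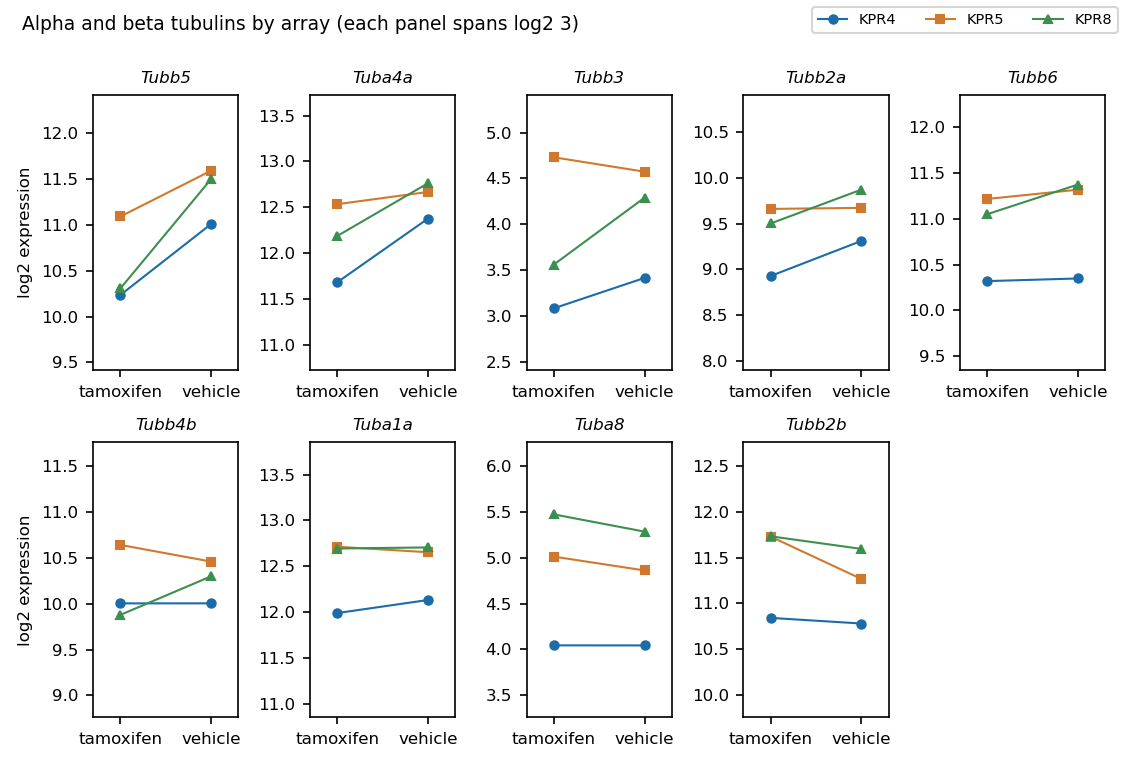
Log2 expression of the 9 tested alpha and beta tubulins on each array, tamoxifen at left and vehicle at right, with panels of equal span. KPR4 lies lowest in every panel except Tubb4b with tamoxifen, where KPR8 lies below it (9.88 against 10.00).

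Alpha and beta tubulins differed between the lines. In limma's F-test between lines 19 of the 38 tested genes differed, against 42.0% of all genes. All 9 alpha and beta tubulins were among them, and none of the 5 tested gamma tubulin and complex genes. Averaged over both treatments, all 9 were lowest in KPR4, as were 36.9% of all genes. Taken by treatment, 8 of 9 were lowest in KPR4 on tamoxifen arrays and 9 of 9 on vehicle arrays. The lines were tested in 3 pairs, each adjusted over all genes. KPR4 was lower than KPR5 in 9 of 9 tubulins and 17 of 38 genes (15.0% of all genes) and lower than KPR8 in 7 of 9 and 13 of 38 (14.7%). KPR5 and KPR8 differed in 1 of the 9 tubulins and in 4 of 38 genes, against 19.2% of all genes. Tubb3 is in each of these tubulin counts. It passed the filter through KPR5 and KPR8 arrays alone, so a low level in KPR4 was favoured by the filter. Without KPR4, 5 of 38 genes differed between the other 2 lines.

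Tubb3 and Tuba8 spread furthest. The mean of Tubb3 over both treatments was 1.40 ± 0.21 lower in KPR4 than in KPR5 (SE, limma F-test over the lines, adjusted p = 0.000348). Both KPR4 arrays of Tubb3 lay under the filter of log2 4, at 3.08 with tamoxifen and 3.42 with vehicle. For Tuba8 the range of line means was 1.33, with 4.04, 5.01 and 5.47 on the tamoxifen arrays of KPR4, KPR5 and KPR8, and 4.04, 4.86 and 5.28 on their vehicle arrays (limma F-test adjusted p = 0.00021). The tubulin order was not shared by every gene. Haus6 (range 1.15) was lowest in KPR4, but Kif16b was highest in KPR4, with 8.23, 6.62 and 7.39 on tamoxifen arrays and 7.81, 7.15 and 7.24 on vehicle arrays and a range of 1.14 (limma F-test adjusted p = 0.00386). Kif21a (range 1.001) and Tubb6 (0.93) follow, and both were lowest in KPR4.

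The changes in the lines were set against each other gene by gene. Across the 38 genes, the change in KPR4 correlated with that in KPR5 at 0.783 and with that in KPR8 at 0.830, and KPR5 with KPR8 at 0.652. Over all genes the same correlations were 0.727, 0.656 and 0.623. The points are genes read on the same arrays, and the values are a description.

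Genes of the same processes that lie outside these families are given from lists. Of 22 tested spindle and cytokinesis genes, 17 fell and 1 rose, against 8.94% and 10.5% of all genes, with a median of -0.76. The falls were led by the mitotic kinase Plk1 (-1.37 ± 0.18), the spindle kinase Aurka (-1.22 ± 0.16), the Kif23 partner Racgap1 (-1.19 ± 0.16) and the chromosomal passenger kinase Aurkb (-1.17 ± 0.17) (SE, limma adjusted p from 9.08e-05 to 0.000278). Ckap2, a spindle protein, rose by 0.54 ± 0.16 (SE, limma adjusted p = 0.0331). The motors with other symbols split: Cenpe, a kinesin of kinetochores, fell by 0.72 ± 0.16 on the log2 scale (SE, limma adjusted p = 0.00639), and Kifc1, a minus-end motor of the spindle, changed by 0.26 ± 0.18 (SE, limma adjusted p = 0.339).

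The other lists held few called genes, and their shares are to be read against the 10.5% of all genes that rose and the 8.94% that fell. Dynein and dynactin genes, the minus-end motor and its cofactor, had 3 higher and 0 lower of 17, with 6 higher and 2 lower at an unadjusted p and a median of 0.19. Those that rose were the dynactin subunits Dctn6 (0.91 ± 0.14), Dctn3 (0.58 ± 0.16) and Dctn4 (0.52 ± 0.10) (SE, limma adjusted p from 0.000412 to 0.019). Kinesin light chains and adaptors had 1 higher, Klc4 (0.58 ± 0.17, SE, limma adjusted p = 0.0272), and 0 lower of 7, also at an unadjusted p, with a median of 0.12. Klc4 lay near the filter, at 5.46, 4.61 and 3.98 with tamoxifen in KPR4, KPR5 and KPR8. With vehicle it stood at 5.10, 3.58 and 3.64, and of these only the KPR4 array reached the filter level. Microtubule binding genes had 2 higher and 0 lower of 14, with the same counts at an unadjusted p and a median of 0.01. These 2 were the plus-end protein Mapre3 (0.95 ± 0.17) and Map7 (0.56 ± 0.19), which recruits kinesin-1 to microtubules (SE, limma adjusted p = 0.00108 and 0.0467). Tubulin folding and modification genes had 3 higher and 1 lower of 14, with a median of 0.18. Sirt2, a tubulin deacetylase, Ttll1, a tubulin glutamylase, and Tbca, a tubulin folding cofactor, rose by 0.58, 0.54 and 0.30, and delta tubulin, Tubd1, fell by 0.52 on the log2 scale (limma adjusted p from 0.0197 to 0.0404). Tubd1 lay near the filter, at 3.53 to 4.01 with tamoxifen and 3.95 to 4.64 with vehicle.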

How the data were processed

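RNA was extracted with Trizol and labelled after amplification with the NuGEN Ovation system (V2). The authors deposited log2 values for each probe set. According to the submitters' processing notes these were made with GCRMA 2.20.0 and R 2.11.0, and the sources used here do not say over which arrays. GCRMA brings arrays to nearly the same distribution (medians 4.56 to 4.63). Scanner files were not used. The number of arrays limits the precision.

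Of 22690 probe sets, 64 were controls and 20380 had 1 gene symbol. The 98 probe sets of these families stand for 50 genes, 22 of them with several, and 7 that carry such a symbol beside others were not used. Changes were fitted with limma 3.58.1 in R 4.3.3 (lmFit, eBayes with trend; 2-sided) with line and treatment as terms. Errors of changes are standard errors of this fit, whose residual degrees of freedom (2) are joined by a prior of 12.9. The line as block follows the stated design. Deviations from the group means correlated within lines at 0.876 (KPR4), 0.737 (KPR5) and 0.761 (KPR8).

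The genes, classes and lists were chosen with earlier results of these data known, and lists get no test. The rule named the genes past the threshold in each class by size, then up to 4 others by signal, those whose probe sets disagree or whose lines differ most, and up to 4 per direction of each list. Cenpe, Kifc1, and the transport kinesin and augmin promoters printed, were chosen after values were seen. Alternatives were other filters, the mean of probe sets, other scaling, no trend, no block and leaving out a line. The fit was tested on simulated data.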

Additional observations from a re-analysis of the deposited data

Results flagged for a closer look

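In 12 of the 38 tested genes the 3 lines did not all move one way with tamoxifen. Each line has 1 array per treatment, so the difference between lines was not tested, and each value below is the highest minus the lowest change of a line on the log2 scale. The widest were Haus2 at 0.954 (highest in KPR4, below 0 in KPR5), Kif16b at 0.950 (highest in KPR4, below 0 in KPR5) and Tubb3 at 0.886 (above 0 in KPR5, lowest in KPR8). Among the transport kinesins, Kif1b had 0.765 and Kif3b 0.669, both highest in KPR8, while Kif3a had 0.611 and Kif3c 0.232, both highest in KPR5. Kif2a had 0.679, with KPR8 highest and KPR5 lowest, and Kif21a 0.154. The tubulins Tubb4b and Tuba1a had 0.603 and 0.202, and Tubgcp4 had 0.513, each highest in KPR5. None of these 12 passed the threshold for a change over the 3 lines. None was in the class of mitotic kinesins, which leaves out Kif2a.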

How the results depend on the processing

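Without the line as replicate block, 0 of 38 genes fell and 0 rose in limma's test, 0 mitotic kinesins fell and 0 transport kinesins changed. Over all 7644 genes 1 fell and 22 rose at the same adjusted threshold. At an unadjusted p under 0.05, 12 of the 38 were lower without the block, 5 of them mitotic kinesins. The share of all genes at that unadjusted p was not counted. The lines differ in level, and that unpaired fit leaves those differences in the error. In the other settings the count that fell was 14 to 17 of the tested genes, and 12 to 15 when a line was left out, against 16. Of the 17 genes past the threshold, 12 kept their call in every setting run except that without the block. Kif11, Haus3, Haus5, Tuba4a and Kif5b did not. No change past the threshold reversed its sign in a setting run. The count that rose, 1, was 0 with probe sets averaged per gene and 0 to 2 without a line, and that of transport kinesins changed was 0 with the mean of probe sets and 0 to 1 without a line. Also without a line, the median of the transport kinesins was 0.0133 to 0.199, against 0.07, and 5 to 19 genes differed between lines, against 19. The cause of these shifts was not tested. Without a line each group holds 2 arrays, and fewer calls follow from fewer samples as well.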
